A study of Mus musculus with 2 samples.

Results

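The BCL2 family survival and death genes described here were 10 of the 32285 genes in the count tables, taken by symbol whatever their counts. They were the pro-survival genes Bcl2, Bcl2l1, Mcl1, Bcl2a1a, Bcl2a1b and Bcl2a1d, the BH3-only genes Bcl2l11 and Bbc3, and the effectors Bax and Bak1. The counts came from mouse bone marrow, from which cells named NKP (natural killer progenitors) had been sorted as CD122-positive and as negative for Ncr1, NK1.1, Sca-1, c-kit and lineage markers. One group was wild-type C57BL/6 mice and the other Irf4-/- mice, which lack a transcription factor of lymphocyte activation, and each group was 1 droplet library of 3′ transcript ends. The sources used here give neither the number of mice, their age or sex, nor the part of Irf4 missing from the allele. The labels speak of sorted cells, while their kit text speaks of nuclei.

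After filtering, 7955 cells of the library labelled Irf4-/- and 12367 cells of the library labelled WT were kept, with median depths of 9540 and 7125 UMIs (unique molecular identifiers, each counting 1 captured transcript). The Irf4 transcript was higher, not lower, in the library labelled Irf4-/-: it had 803 UMIs there and 287 in the WT library. That was 9.77 and 3.04 CPM (counts of UMIs per 1000000 UMIs of the same cells). The log2 ratio, Irf4-/- over WT, was 1.68 (interval 1.49 to 1.88). In the gates used below it was 1.27 in T, 0.86 in progenitor B and 0.74 in B cells, with intervals clear of 0. In gamma-delta T cells 7 and 3 UMIs gave 1.49, with an interval that included 0. Reads from transcript ends need not fall in the deleted part, so the genotype was not checked by them and each direction below holds for the libraries as labelled. The libraries had 27 barcodes in common, of 8147 and 12732. Each genotype had 1 library, so nothing was replicated and nothing tested: the 95% intervals cover counting error only, and a member was called higher or lower at 1.5-fold or more with at least 20 UMIs over both libraries.

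Cells die by the mitochondrial pathway when BAX or BAK1 oligomerises and opens the outer mitochondrial membrane. BCL2, BCL-XL (from Bcl2l1), MCL1 and A1 (from the Bcl2a1 genes) hold these effectors and their activators in check, and BH3-only proteins such as BIM (from Bcl2l11) and PUMA (from Bbc3) bind and neutralise the pro-survival proteins. In lymphocytes, interleukin signals sustain BCL2 and MCL1, antigen receptor and NF-kB signals raise A1, BCL-XL supports early B cell precursors, and BIM removes cells deprived of cytokine.

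Bcl2a1a, Bcl2a1b and Bcl2a1d are near-identical copies of 1 gene on mouse chromosome 9, so their counts are not independent. In GENCODE M21 on GRCm38, Bcl2a1a lies at chr9:88956900-88962419 on the plus strand, Bcl2a1b at chr9:89199209-89207827 on the plus strand and Bcl2a1d at chr9:88723285-88731914 on the minus strand. Aligned transcripts were identical at 98.2% of bases between Bcl2a1a and Bcl2a1b, 98.8% between Bcl2a1a and Bcl2a1d, and 99.1% between Bcl2a1b and Bcl2a1d. Of the 90-base windows in the last 500 transcript bases, 39.7% for Bcl2a1a, 39.4% for Bcl2a1b and 65.2% for Bcl2a1d also occurred in another copy, whereas none did for the other 7 members. The split of counts among the copies is therefore uncertain, and a sum over cells does not tell whether a read came from a shared stretch. The sequence just upstream of the 3 starts, from RefSeq promoters on GRCm38.p6, shows how far the copies match outside the transcript. The stretches are chr9:88956714-88956855 (plus strand), chr9:89199023-89199164 (plus strand) and chr9:88731915-88732050 (minus strand), each printed 5′ to 3′ in the direction of its gene, with the single base substituted in Bcl2a1d in capitals.
Bcl2a1a: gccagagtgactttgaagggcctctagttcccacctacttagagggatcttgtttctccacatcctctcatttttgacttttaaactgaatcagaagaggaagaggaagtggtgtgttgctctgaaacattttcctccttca
Bcl2a1b: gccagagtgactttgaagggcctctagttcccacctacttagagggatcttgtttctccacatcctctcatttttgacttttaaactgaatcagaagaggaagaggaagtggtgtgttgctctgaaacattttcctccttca
Bcl2a1d: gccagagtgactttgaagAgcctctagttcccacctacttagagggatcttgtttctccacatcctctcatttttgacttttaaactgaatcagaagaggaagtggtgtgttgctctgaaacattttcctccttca

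The 142 bases of Bcl2a1a and Bcl2a1b were identical. The 136 bases of Bcl2a1d had 1 substitution and 6 fewer bases. In the 300-base windows around the starts, searched on both strands, the PU.1 core GAGGAAGT (PU.1 is a transcription factor of myeloid and B cells) was present in 3 of 3 copies and in 3.20% of 32851 mouse promoters. A STAT element, TTCNNNGAA, was found in 0 of 3 copies and in 8.30% of promoters. The copies are near-identical in the printed stretches, so 3 of 3 and 0 of 3 are not separate observations. They cannot be read as a rate beside the share of all promoters. The motifs were searched separately and may overlap, and a match or its absence describes letters in these windows only.

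Cells were gated on raw marker UMIs, none of them from a member. T cells had CD3 transcripts, at most 1 UMI of Cd79a and Cd79b together and under 2 UMIs of Trdc, and numbered 5744 (Irf4-/-) and 9626 (WT). Gamma-delta T cells, with at least 2 Trdc UMIs and at most 1 of Trac, numbered 607 and 1056. Progenitor B cells, with Cd79 transcripts and at least 2 UMIs of Vpreb1, Igll1 and Dntt together, numbered 262 and 13. B cells, with Cd79 transcripts, none of those 3 and at least 1 UMI of Ms4a1, numbered 654 and 783. Median depths in this order were 10075, 8057, 4465 and 4120 UMIs for Irf4-/-, against 7377.5, 5599.5, 14657 and 3027 for WT. The remaining 8.65% and 7.19% of cells, which included cells with T and B markers together, entered no gate.

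The gates carried their own markers, and T cells also carried transcripts from a list of natural killer and innate lymphoid markers, very unevenly over its genes. The 8 genes of that list summed to 878 and 777 CPM in T cells, with 8 of 8 detected, and to 22.3 and 10.4 CPM in B cells, with 5 of 8. The largest parts of the T cell sum were Il2rb (375 and 284 CPM), Tcf7 (252 and 302) and Id2 (128 and 74.9). Zbtb16 was at only 0.522 and 0.563 CPM. With parts this uneven, the sum does not mark these cells as natural killer or innate lymphoid cells. Eomes was detected in 44.9% and 36.7% of T cells, and Klrb1c, which encodes NK1.1, in 12.0% and 4.97%. Il2rb, which encodes CD122, was detected in 93.5% and 80.1% of T cells and in 1.53% and 0.255% of B cells, and Ncr1 was at 0.538 and 0.131 CPM in T cells. Trac was at 515 and 519 CPM in T cells and 2.37 and 4.53 in B cells. Fcer2a, a receptor of mature B cells, was at 112 and 188 CPM in B cells and 0.127 and 0.170 in T cells. Haemoglobin transcripts were unequal: Hbb-bs was at 10.1 and 2048 CPM in B cells and at 140 and 359 in T cells. In progenitor B cells of the library labelled Irf4-/-, Elane was at 576 CPM, from 0.763% of the cells, and at 0 in the library labelled WT. Without cells holding at least 3 haemoglobin or 3 granule protease UMIs, the members called numbered 2 in T, 2 in gamma-delta T, 4 in progenitor B and 5 in B cells, as with them.

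Each gate had its own mix of members, and members past 1.5-fold between the libraries were found in each of the 4 gates. Bcl2 marked both T cell gates, Mcl1 and the Bcl2a1 genes were highest in B cells, and Bcl2l1 was highest in the progenitor B cells of the library labelled Irf4-/-. In T cells 0 of 9 tested members were higher and 2 were lower in the library labelled Irf4-/- (Bcl2a1d and Bbc3), against 6.95% and 4.42% of 13120 genes. In gamma-delta T cells 1 of 9 was higher (Bcl2a1d) and 1 lower (Bbc3), against 6.29% and 4.6% of 10102 genes. In progenitor B cells 4 of 5 were higher (Bcl2l1, Mcl1, Bcl2l11 and Bak1) and 0 lower, against 27.9% and 13.2% of 7582 genes, with only 13 cells in the library labelled WT. In B cells 4 of 9 were higher (Bcl2l1, Bcl2a1b, Bcl2a1d and Bak1) and 1 lower (Bcl2), against 7.78% and 6.86% of 9477 genes. The median log2 ratio over the tested members, Irf4-/- over WT, was 0.01 in T, 0.10 in gamma-delta T, 0.97 in progenitor B and 0.06 in B cells, beside 0.02, 0.01, 0.11 and -0.003 over all genes tested. Bcl2a1a had no UMI in any gate, and with 0 of 5744 and 0 of 9626 T cells a share of up to 0.0522% and 0.0312% is allowed. The uncertain split of reads among the copies applies to this count too.

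**Figure D1:**
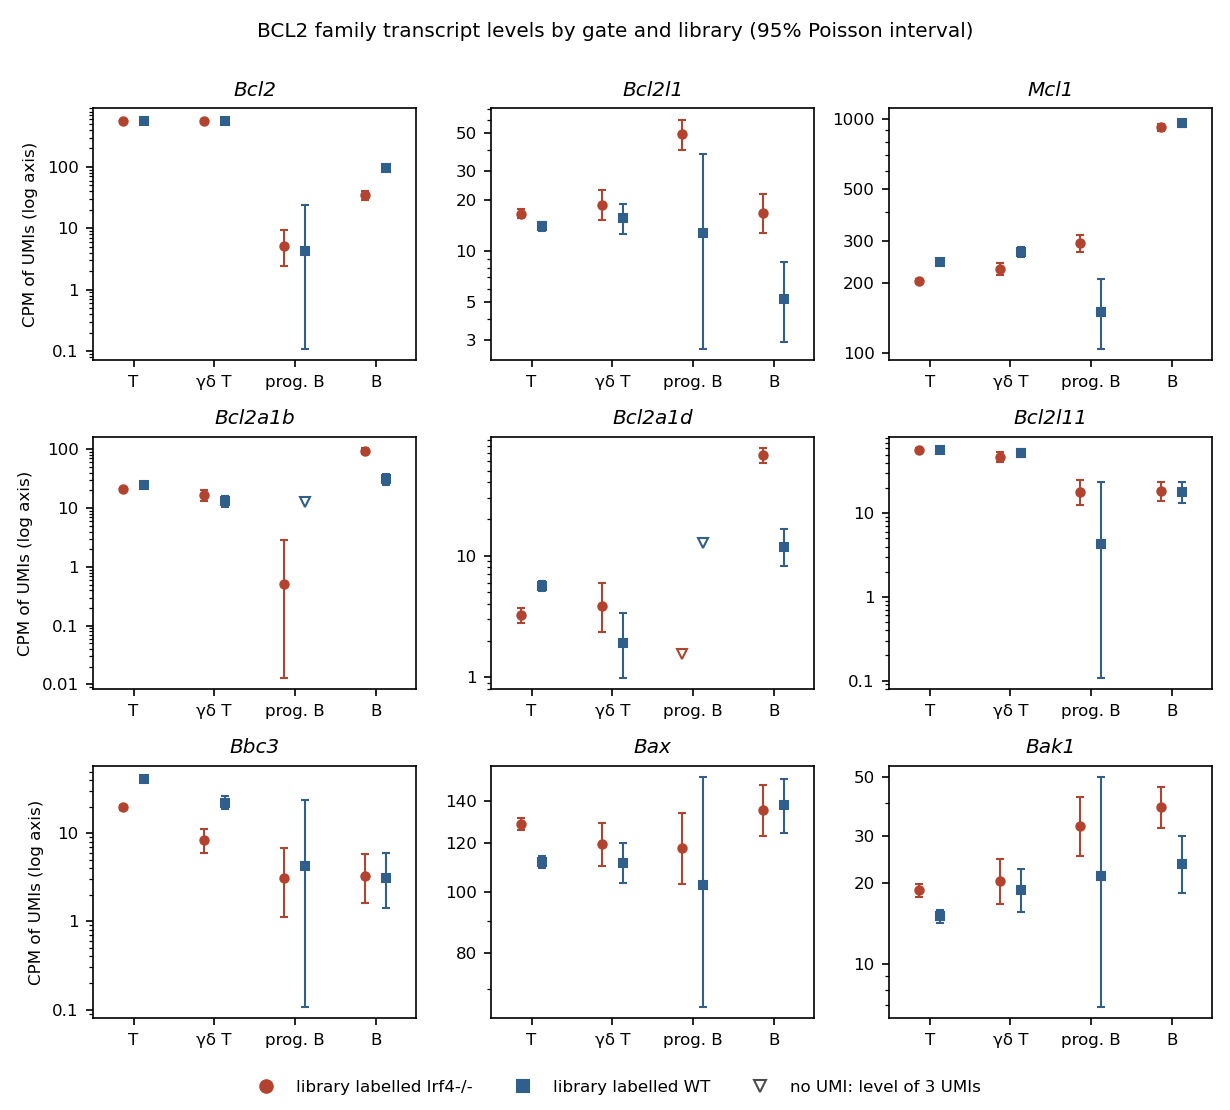
CPM (log axis, a different range in each panel) of 9 members in T, gamma-delta T, progenitor B (prog. B) and B cells of the library labelled Irf4-/- (circles) and the library labelled WT (squares), with 95% Poisson intervals; open triangles mark the level of 3 UMIs where none was counted. Bcl2 sits at 560 to 569 in both T cell gates of both libraries and below 97 in both B lineage gates, while Mcl1 is above 900 in B cells and below 300 in the other gates.

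**Figure D2:**
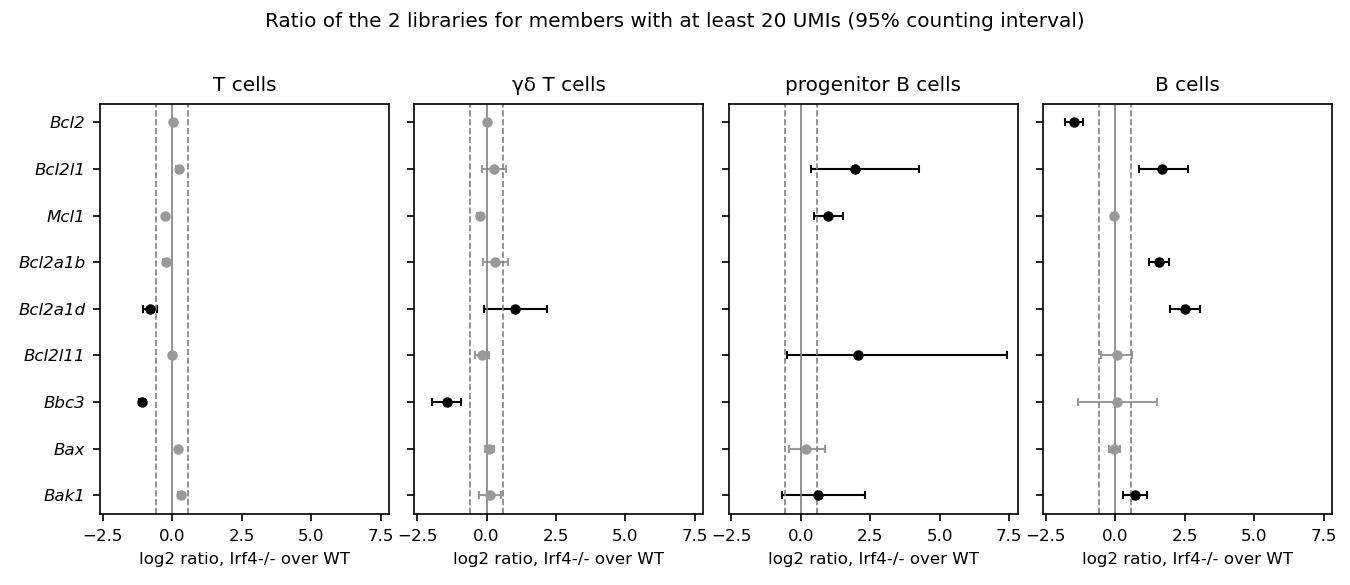
Log2 ratio of the CPM, with Irf4-/- over WT as labelled, for each member with at least 20 UMIs in the gate, with 95% counting intervals; dashed lines mark 1.5-fold and black points lie at or beyond them. Bbc3 lies beyond the line on the lower side in both T cell gates, and 5 of 9 members lie beyond it in B cells.

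Bcl2, the founding survival gene of the family (chr1:106538178-106714274, minus strand), was level between the T cells of the libraries and lower in the B cells of the library labelled Irf4-/-. T cells had 35745 and 42782 UMIs, 566 and 560 CPM, a log2 ratio of 0.01 (interval -0.01 to 0.04). Gamma-delta T cells had 569 and 564 CPM, a ratio of 0.01 (interval -0.06 to 0.08). The intervals were narrow because the counts were large. B cells had 116 UMIs (34.4 CPM) in the library labelled Irf4-/- and 278 (96.8 CPM) in the library labelled WT. That was 2.81-fold lower, a log2 ratio of -1.49 (interval -1.82 to -1.17).

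The lower Bcl2 in B cells was also seen in the share of cells. At 2000 UMIs per cell, 5.86% (38 of 649) and 14.4% (109 of 758) of B cells had a Bcl2 UMI, and 13.3% and 23.1% before thinning. In T cells, which should hold more, the thinned shares were 64.2% and 62.5%. Trac, which B cells should lack, had thinned shares of 0.462% and 0.792% in B cells, so Bcl2 there was above the level of T cell RNA. The summed level of the 10 T cell markers in B cells was 39.5 and 72.4 CPM, with 9 of 10 detected and Cd4 at 0, against 5396 and 5837 in T cells. Bcl2 in progenitor B cells was 10 UMIs and 1 UMI (5.14 and 4.27 CPM). In the library labelled Irf4-/- it was below Trac at 9.24 CPM and is read as background. In the library labelled WT Trac was at 0 in these cells, so the 1 Bcl2 UMI could not be judged this way.

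Mcl1, a short-lived survival protein that lymphocytes require continuously (chr3:95658788-95663176, plus strand), was level between the libraries in B cells and slightly lower in the T cells of the library labelled Irf4-/-. B cells had 3103 and 2747 UMIs, 921 and 956 CPM, a ratio of -0.05 (interval -0.13 to 0.02). T cells had 12868 and 18631 UMIs, 204 and 244 CPM, a ratio of -0.26 (interval -0.29 to -0.23). Gamma-delta T cells had 228 and 270 CPM, a ratio of -0.24 (interval -0.35 to -0.14). In both T cell gates the interval was clear of 0 and the ratio was inside 1.5-fold. Within each library Mcl1 was higher in B than in T cells, 4.52-fold for Irf4-/- and 3.92-fold for WT. Thinned shares of cells with Mcl1 were 82.3% and 77.8% in B and 34.1% and 39.0% in T cells.

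Bcl2l1, which encodes BCL-XL (chr2:152780668-152831728, minus strand), was higher in B cells of the library labelled Irf4-/-, and in its progenitor B cells against 3 UMIs in the library labelled WT. B cells had 57 and 15 UMIs, 16.9 and 5.22 CPM, 3.24-fold higher, a ratio of 1.70 (interval 0.86 to 2.62). The thinned shares were 2.93% (19 of 649) and 1.19% (9 of 758). Progenitor B cells had 96 and 3 UMIs, 49.3 and 12.8 CPM, a ratio of 1.94 (interval 0.35 to 4.25). The share of cycling cells among them differed between the libraries, and values for cycling progenitors are given below. T cells differed less, with 1053 and 1074 UMIs, 16.7 and 14.1 CPM, a ratio of 0.25 (interval 0.12 to 0.37). The counts in WT B and progenitor B cells were small, which the wide intervals show.

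Bcl2a1b and Bcl2a1d, copies of the gene for A1, were higher in B cells and lower in T cells of the library labelled Irf4-/-. The T cell ratio of Bcl2a1b was inside 1.5-fold. In B cells Bcl2a1b had 312 and 90 UMIs, 92.6 and 31.3 CPM, 2.95-fold higher in the library labelled Irf4-/-, a ratio of 1.56 (interval 1.22 to 1.92). Bcl2a1d had 225 and 34 UMIs there, 66.8 and 11.8 CPM, 5.64-fold higher, with an interval of the log2 ratio of 1.97 to 3.06. In T cells Bcl2a1b had 1311 and 1855 UMIs, 20.7 and 24.3 CPM, a ratio of -0.23 (interval -0.33 to -0.12). Bcl2a1d had 205 and 429 UMIs in T cells, 3.24 and 5.61 CPM, a ratio of -0.79 (interval -1.04 to -0.55). The difference of the ratios between B and T cells was not tested. In gamma-delta T cells Bcl2a1d had 20 and 12 UMIs, and the interval of its ratio of 1.01 reached from -0.09 to 2.17. Bcl2a1b had 85 and 82 UMIs there, 16.4 and 13.1 CPM, a ratio of 0.32, so both ratios in that gate were above 0.

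The size of the B cell difference in Bcl2a1b varied with the cells counted. Of the 312 UMIs in the library labelled Irf4-/-, 23.4% were in 1 cell, which held 73 of them among 28782 UMIs in all. Without the cell with most UMIs in each library the ratio was 1.31. It was 0.80 as a mean over cells, 0.89 at 2000 UMIs per cell, 1.02 without cycling cells and 1.11 without the 5% deepest cells, so it stayed above 1.5-fold but at a smaller size. Thinned shares of B cells with Bcl2a1b were 6.32% (41 of 649) and 4.49% (34 of 758), and with Bcl2a1d 4.62% (30 of 649) and 1.32% (10 of 758). Over the same alternatives Bcl2a1d lay between 2.03 and 2.48. Of B cells with a Bcl2a1d UMI, 54.7% (35 of 64) and 47.8% (11 of 23) also had Bcl2a1b, and 42.5% (68 of 160) and 52.7% (157 of 298) of such T cells did, against 13.9%, 6.77%, 14.9% and 13.3% of all cells of those gates. These shares depend on how reads were split between the near-identical copies.

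Along the B lineage, the survival genes followed different courses, and the order of the populations was similar in the 2 libraries. B cells were divided into mature B cells, with at least 2 UMIs of Ighd and Fcer2a together (320 and 367 cells), and the other B cells (334 and 416). The other B cells are those under that count, and they can include mature cells in which these transcripts were missed. Median depths were 4447.5 and 3040 UMIs in mature and 3850.5 and 3006 in other B cells (Irf4-/- and WT). From progenitor B to other B to mature B cells in the library labelled Irf4-/-, Bcl2 was at 5.14, 17.8 and 48.8 CPM and Bcl2a1b at 0.514, 34.4 and 143. Over the same 3 populations Mcl1 was at 294, 968 and 880 CPM and Bcl2l1 at 49.3, 15.9 and 17.8. Bcl2a1d had no UMI in 262 progenitor B cells, which allows up to 1.54 CPM, and was at 34.4 and 94.9 in the other populations. The progenitor value of Bcl2 is the one read as background above. Bcl2, Bcl2a1b and Bcl2a1d were thus highest in mature B cells, Mcl1 was higher in both B populations than in progenitors, and Bcl2l1 was highest in progenitors there.

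The library labelled WT, with 13 progenitor B cells, gave less precise values at the first step. Bcl2 was at 4.27, 64.5 and 135 CPM, Bcl2a1b at 0, 15.3 and 50.5, and Bcl2a1d at 0, 10.9 and 13.0. Mcl1 was at 149, 999 and 905 and Bcl2l1 at 12.8, 5.11 and 5.36. Mature over other B cells, Bcl2 had log2 ratios of 1.45 (interval 0.82 to 2.12) and 1.07 (0.71 to 1.44), and Bcl2a1b of 2.06 (1.63 to 2.51) and 1.72 (1.03 to 2.46), in the Irf4-/- and WT libraries. Bcl2a1d had 1.46 (1.01 to 1.93) and 0.26 (-0.80 to 1.32), and Mcl1 -0.14 (-0.24 to -0.03) and -0.14 (-0.25 to -0.03). Bax had -0.42 (-0.70 to -0.15) and -0.04 (-0.33 to 0.25). Mature and other B cells therefore differed beyond counting error in Bcl2, Bcl2a1b and, slightly, Mcl1 in both libraries, and in Bcl2a1d and Bax in the library labelled Irf4-/-. In the library labelled Irf4-/-, 1 mature B cell held 73 of the 258 Bcl2a1b UMIs of mature B cells. The values given here include that cell. The intervals of Bcl2l1, Bcl2l11, Bbc3 and Bak1 included 0 in both.

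The differences between the libraries were present in both B populations. In mature B cells Bcl2 was 2.77-fold lower, and Bcl2l1 3.32-fold, Bcl2a1b 2.84-fold and Bcl2a1d 7.30-fold higher, in the library labelled Irf4-/-. In other B cells Bcl2 was 3.61-fold lower, and Bcl2l1 3.12-fold, Bcl2a1b 2.25-fold and Bcl2a1d 3.17-fold higher. Mcl1 had log2 ratios of -0.04 and -0.05. The Bcl2a1b value of mature B cells includes the 1 cell of the library labelled Irf4-/- that held 73 UMIs.

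**Figure D3:**
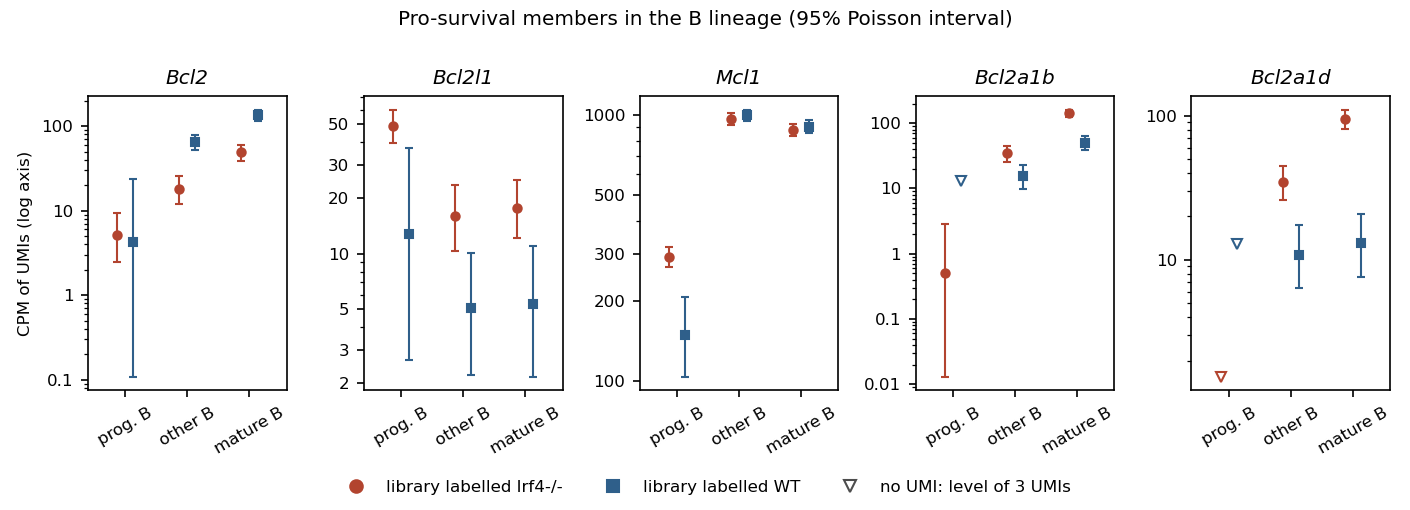
CPM (log axis) of 5 pro-survival members in progenitor B (prog. B), other B and mature B cells of the library labelled Irf4-/- (circles) and the library labelled WT (squares), with 95% Poisson intervals; open triangles mark the level of 3 UMIs where none was counted. Bcl2 in the library labelled Irf4-/- is lower than in the library labelled WT in other B (17.8 against 64.5) and mature B cells (48.8 against 135), and Bcl2a1b is higher (34.4 against 15.3, and 143 against 50.5). Of the 258 Bcl2a1b UMIs behind the 143, 73 were in 1 cell.

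Progenitor B cells were mostly not cycling in the library labelled Irf4-/- (70 of 262 had at least 3 UMIs of 7 cell cycle genes) and mostly cycling in the library labelled WT (9 of 13). Within the library labelled Irf4-/-, Mcl1 was 2.83-fold lower in cycling progenitors than in the others, at 168 against 476 CPM (interval of the log2 ratio -1.76 to -1.25), and Bcl2l1 was at 30.3 and 76.9, a ratio of -1.34 (interval -1.98 to -0.72). Between the libraries, Mcl1 had 572 and 35 UMIs, 294 and 149 CPM, a ratio of 0.97 (interval 0.48 to 1.51). That ratio was 0.37 without cycling cells, 0.35 with cycling and other cells given equal weight and 0.23 at 2000 UMIs per cell, inside 1.5-fold each time. In cycling progenitors alone Bcl2l1 had 35 and 3 UMIs, 30.3 and 13.6 CPM, in the Irf4-/- and WT libraries. Bcl2l1 had no UMI in the 4 WT progenitors that were not cycling. Bcl2l11 had 35 UMIs and 1 UMI, and Bak1 64 and 5, with intervals of their ratios of 2.07 and 0.62 that included 0.

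The BH3-only gene Bbc3, whose protein PUMA is a target of p53 and FOXO factors (chr7:16308393-16318205, plus strand), was lower in the T cells of the library labelled Irf4-/-. T cells had 1237 and 3178 UMIs, 19.6 and 41.6 CPM, 2.12-fold lower, a log2 ratio of -1.09 (interval -1.18 to -0.99). At 2000 UMIs per cell, 3.81% (219 of 5741) and 8.04% (773 of 9609) of T cells had a UMI, and 17.4% and 26.0% before thinning. Gamma-delta T cells had 43 and 139 UMIs, 8.29 and 22.2 CPM, a ratio of -1.42 (interval -1.95 to -0.92). Both T cell gates were thus past 1.5-fold with intervals clear of it. Within each library Bbc3 was lower in gamma-delta T than in T cells, 2.36-fold for Irf4-/- and 1.87-fold for WT.

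Bbc3 kept this direction across T cell populations drawn by other transcripts. Over 14 overlapping sub-populations (split by CD8, cell cycle, Gzmk, Myb, Il7r, Klre1 and Ikzf2 transcripts), it was at 14.5 to 26.0 CPM in the library labelled Irf4-/- and at 29.9 to 47.7 in the library labelled WT. All 14 ratios were at least 1.5-fold lower, from -1.38 to -0.79. They share cells, and the T cells without Gzmk were all 5744 T cells of the library labelled Irf4-/-, so the ratios do not count as separate observations. CD8 T cells had 22.4 and 44.2 CPM and CD8-negative T cells 15.5 and 34.3. In B cells Bbc3 had 11 and 9 UMIs, 3.26 and 3.13 CPM, with thinned shares of 0.154% (1 of 649) and 0.660% (5 of 758), too few for a direction.

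Bcl2l11, which encodes BIM (chr2:128126038-128162547, plus strand), was level between the libraries in the gates with many counts. T cells had 3636 and 4381 UMIs, 57.5 and 57.3 CPM, a ratio of 0.01. Gamma-delta T cells had 47.1 and 52.4 CPM, a ratio of -0.16 (interval -0.40 to 0.09). B cells had 62 and 51 UMIs, 18.4 and 17.8 CPM, a ratio of 0.05 (interval -0.51 to 0.61). T cells had 3.13 and 3.23 times the B cell level in the 2 libraries. In CD8-negative against CD8 T cells Bcl2l11 was at 65.9 against 51.5 and 67.9 against 52.3 CPM.

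Bax, an effector (chr7:45461697-45466898, minus strand), was at 129, 119, 118 and 135 CPM in T, gamma-delta T, progenitor B and B cells of the library labelled Irf4-/-, and at 112, 111, 102 and 138 in the library labelled WT. Its ratio was 0.20 in T cells (8128 and 8536 UMIs) and -0.03 in B cells (455 and 395 UMIs). Bak1 (chr17:27019810-27029009, minus strand) was at 18.9 and 15.1 CPM in T cells, a ratio of 0.32, and at 20.4 and 18.9 in gamma-delta T cells. In B cells Bak1 had 130 and 68 UMIs, 38.6 and 23.7 CPM, 1.63-fold higher, a ratio of 0.70 (interval 0.27 to 1.15), with thinned shares of 8.47% and 4.62%. Bak1 was thus the effector past 1.5-fold, in B cells and, with its wide interval, in progenitor B cells.

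T cells were then divided by transcripts of other genes, since the members varied within them. Gzmk, a granzyme of cytotoxic T cells, had no UMI in 5744 T cells of the library labelled Irf4-/-, which allows a share of up to 0.0522%, and had a UMI in 272 of 9626 in the library labelled WT. This division was chosen after the values were seen. Those 272 cells, with a median of 4925 UMIs, had Bcl2a1d at 117 CPM against 3.10 in WT T cells without Gzmk, a log2 ratio of 5.23 (interval 4.95 to 5.51). Bcl2a1b was at 180 against 20.8, a ratio of 3.11 (interval 2.93 to 3.29). Bcl2 was lower there, at 296 against 566, a ratio of -0.94 (interval -1.07 to -0.81), and Bbc3 was at 16.0 against 42.2. Mcl1 was at 335 against 242, Bcl2l1 at 21.9 against 13.9 and Bax at 145 against 111.

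The T cell difference of Bcl2a1d rested on those cells. Without cells holding a Gzmk UMI its ratio was 0.06 in place of -0.79, that of Bcl2a1b was -0.002 in place of -0.23, and that of Bbc3 was -1.11. The ratio of Bcl2a1d was -0.53 without cycling cells, inside 1.5-fold, and it was -1.23 in CD8 and 0.30 in CD8-negative T cells. Over the 14 overlapping sub-populations of T cells, the ratio was below 0 in 10 for Bcl2a1b and in 11 for Bcl2a1d. The summed level of the 9 B cell markers in T cells was 204 and 237 CPM, with 9 of 9 detected, against 14339 and 14861 in B cells.

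T cells with at least 3 UMIs of Myb, a transcription factor of progenitors and renewing T cells, numbered 179 and 354 in the libraries. Against T cells without Myb, Bcl2a1b was at 52.7 against 16.9 CPM in the library labelled Irf4-/- and 54.1 against 22.2 in the library labelled WT. Bcl2a1d was at 12.2 against 2.58 and 13.3 against 5.83, and Bcl2l11 at 85.2 against 54.1 and 81.7 against 54.0. Bcl2 was lower, at 396 against 582 and 382 against 583. The Myb-positive cells thus had more Bcl2a1b, Bcl2a1d and Bcl2l11 and less Bcl2 in each library, beyond counting error. Mcl1 was slightly higher in both, at 225 against 202 and 266 against 242. Clear of 0 in the library labelled WT alone were Bcl2l1 (8.80 against 14.7 CPM), Bbc3 (32.7 against 41.0), Bax (101 against 114) and Bak1 (20.6 against 14.6). In the library labelled Irf4-/- these were at 14.8 against 17.0, 16.9 against 19.7, 139.5 against 131 and 16.9 against 18.7, with intervals that included 0. Cycling T cells also had less Bcl2 than the other T cells, 470 against 628 and 465 against 586 CPM, and less Bbc3, 14.5 against 22.9 and 33.3 against 43.8.

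**Figure D4:**
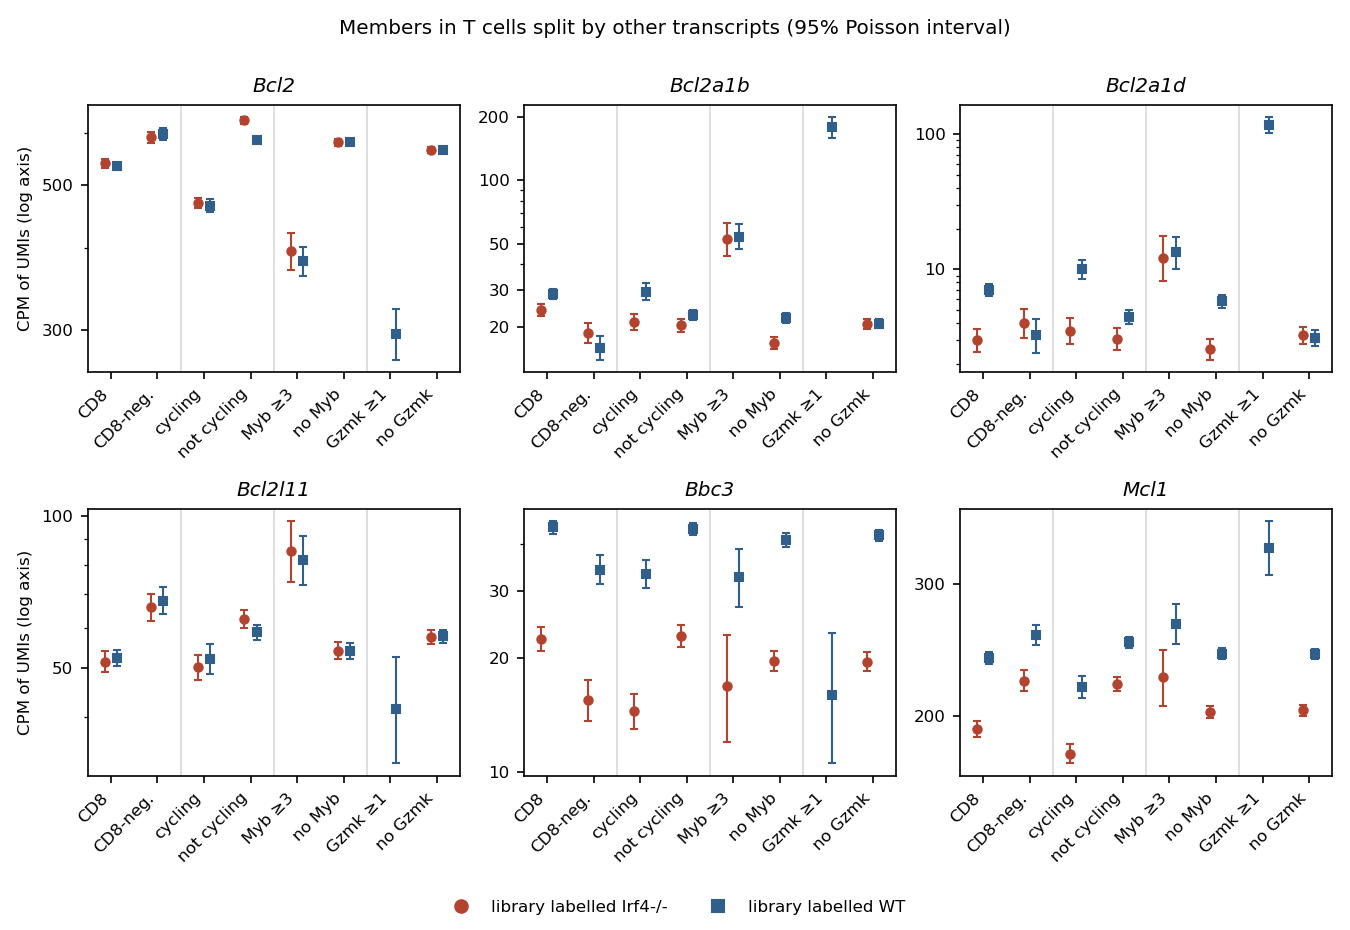
CPM (log axis) of 6 members in T cells divided by CD8, cell cycle, Myb and Gzmk transcripts, in the library labelled Irf4-/- (circles) and the library labelled WT (squares), with 95% Poisson intervals; no cell of the library labelled Irf4-/- had Gzmk. Bbc3 is lower in the library labelled Irf4-/- in each of the 7 populations that both libraries hold, and Bcl2a1d in Gzmk cells of the library labelled WT (117) stands above all other points of its panel.

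The mean number of members detected in a cell was compared at equal depth. At 2000 UMIs per cell, T cells had a UMI of 1.47 and 1.51 members on average, gamma-delta T cells of 1.40 and 1.44, and B cells of 1.36 and 1.32. Progenitor B cells had 0.969 and 0.692, the latter over 13 cells. Without thinning the T cell means were 3.62 and 3.24.

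Among 61 other genes of the pathway (16 other family members, 16 of the apoptosome and caspases, 9 of death receptors and 20 upstream regulators), 57 were tested in T cells. There 4 were higher (7.02%) and 2 lower (3.51%) in the library labelled Irf4-/-, near the 6.95% and 4.42% of all genes. The higher genes were Cdkn1a, a cell cycle inhibitor under p53 (32 and 14 UMIs, log2 ratio 1.47), Fasl, the ligand of the death receptor FAS (1478 and 651, 1.46), Pim2, a survival kinase (5380 and 2683, 1.28), and Birc5, an inhibitor of apoptosis protein that acts in cell division (3337 and 1895, 1.09). The lower genes, named because they were the only 2, were Il7r, the interleukin 7 receptor chain (17199 and 38346, -0.88), and Bmf, a BH3-only gene (35 and 73, -0.79). Cycling cells were 1744 of 5744 and 1451 of 9626 T cells, and their part in these values was not tested. The median over the 57 genes was 0.10, beside 0.02 over all genes.

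In gamma-delta T cells 8 of 51 tested genes were higher (15.7%) and 2 lower (3.92%), against 6.29% and 4.6% of all genes. Pim2 was at 85.4 and 30.2 CPM, Birc5 at 31.2 and 12.6 (log2 ratio 1.31), Fasl at 45.7 and 24.1 (0.92) and Il7r at 318 and 548 (-0.78). The other lower gene, Casp9, had 21 and 40 UMIs, with an interval that included 0. The intervals of Bcl2l2 (13 and 10 UMIs) and Bik (12 and 9), which were among the higher genes, also included 0. In B cells 49 were tested, 3 were higher (6.12%) and 3 lower (6.12%), against 7.78% and 6.86% of all genes. Myc, a driver of growth, had 86 and 30 UMIs (1.29) and Pim2, higher in T cells, 43 and 87 (-1.25). Bid, a BH3-only gene cleaved by caspase 8, had 136 and 70 UMIs (0.73) and Dffb, the caspase-activated nuclease, 27 and 38 (-0.72). The remaining genes past 1.5-fold were Cdkn1a (0.62) and Pmaip1 (-0.65). The intervals of Dffb, Cdkn1a and Pmaip1 included 0.

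In progenitor B cells 17 of 42 tested pathway genes were higher (40.5%) and 6 lower (14.3%), against 27.9% and 13.2% of all genes there. The largest ratios were those of Bmf (71 UMIs and 1 UMI, 3.09), Pim1 (237 and 5, 2.51), Cdkn1a (88 and 2, 2.40) and Bnip3 (40 and 1, 2.27). Each rested on at most 5 UMIs in the library labelled WT.

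The genes whose levels over the 8 gate and library values were most like those of Bcl2 were Gimap3, Gimap4, Itgal, Zyx and Traf1. Their root mean square differences on the log2 scale, after centring, were 0.44, 0.50, 0.58, 0.70 and 0.73. Gimap3, for example, was at 420 and 440 CPM in T cells and 45.1 and 69.6 in B cells. The genes most like Bcl2a1b were Ltb, Cd52, Ms4a4c, Grap2 and Slfn2, at 0.79, 0.94, 0.95, 0.99 and 0.998. Those were looser matches, and the 8 values share 2 libraries. Only genes with a mean of at least 50 CPM were ranked, a mean that Bcl2a1b and its copy Bcl2a1d did not reach themselves. Genes as scarce as Bcl2a1b were therefore left out of its list.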

How the data were processed

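The 2 single-cell 3′ libraries, 1 per genotype, were deposited as counts: each value is the number of UMIs of a gene in a barcode, from Cell Ranger 6.1.1 per the file headers. Per the submitters' processing notes the build was mm10. For the annotation release, the sources used here give nothing. Of the gene IDs, 32158 of 32285 were found in GENCODE M21 (GRCm38), which gave positions and transcripts.

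Barcodes were kept with at least 500 genes, at least 1000 UMIs and under 10% mitochondrial-encoded UMIs. Total counts were 82599767 (Irf4-/-) and 95031071 (WT). No doublet caller was run: cells with more than 1 UMI of the other lineage were kept out of a gate, and an alternative left out the 5% deepest cells. T and B gates needed at least 3 CD3 or Cd79 UMIs and at most 1 of the other. CD8 T cells had at least 3 UMIs of Cd8a and Cd8b1 together and CD8-negative T cells none.

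UMIs were summed per gate and library and given as CPM (per 1000000 UMIs of the gate), with exact Poisson intervals. The log2 ratio, Irf4-/- over WT, had an exact conditional binomial interval, and shares an exact Clopper-Pearson interval, all at 95% and for counting error only. A count of 0 was read as allowing up to 3 counts. For shares, each cell was thinned to 2000 UMIs, which left out 3 and 17 T, 0 and 3 gamma-delta T, 3 and 0 progenitor B and 5 and 25 B cells. Levels are of transcript ends and are not compared between genes. The exception is Bcl2 in the B lineage, set beside Trac as a gauge of T cell RNA.

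Members and lists were chosen with earlier results of these data known. Named were all members, up to 4 pathway genes per gate with at least 20 UMIs and 1.5-fold, largest first, and the 5 genes most like Bcl2 and Bcl2a1b among those with a mean of at least 50 CPM (log2 with a pseudocount of 1, centred). Alternatives were other cell filters, gates, scalings, weights and count minimums. Python tools were numpy 2.4.6, scipy 1.17.1, pandas 2.3.3 and matplotlib 3.10.9. The script was tested on simulated data.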

Additional observations from a re-analysis of the deposited data

Results flagged for a closer look

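Mcl1, Bcl2a1b and Bcl2a1d had ratios between the libraries that pointed in opposite directions in different gates, each with a counting interval clear of 0. None of these differences was tested, since there was 1 library per genotype. For Mcl1 the log2 ratio in progenitor B cells exceeded that in T cells by 1.23 and that in gamma-delta T cells by 1.22, with 13 progenitor B cells in the library labelled WT, of which 9 were cycling. For Bcl2a1b the ratio in B cells exceeded that in T cells by 1.79, and for Bcl2a1d by 3.29. The T cell ratios of both Bcl2a1 genes were near 0 without cells holding a Gzmk UMI (-0.002 and 0.06); that alternative was run for the T cell gates.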

How the results depend on the processing

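No paired analysis was possible because there was 1 library per genotype and the labels give no replicate numbers; for the same reason no library could be left out. Over 458 alternative ratios of the members, 432 lay inside the counting interval of the reported ratio, 25 lay outside it with no called ratio turned, and 1 turned: Bcl2a1d in T cells was 0.063 without cells holding a Gzmk UMI, an alternative chosen after seeing the data. The members past 1.5-fold numbered 1 in T cells without cycling cells and 1 without cells holding a Gzmk UMI, in place of 2, and 1 in gamma-delta T cells at 2000 UMIs per cell and 1 with at least 50 UMIs, in place of 2. In progenitor B cells they numbered 0 without cycling cells and 0 at 2000 UMIs per cell, in place of 4, where fewer counts were left. They numbered 3 with the stricter gate (Bak1 then 0.47), 3 when centred on the median gene (Bak1 0.51), 3 with at least 50 UMIs and 3 without the cell with most UMIs of each gene, which left no ratio for Bcl2l11. In B cells the count was 5 under every alternative run there. Leaving out the barcodes in both libraries, the cells with haemoglobin or granule protease UMIs, or the 1 cell with most UMIs of each gene was also chosen after seeing the data, and left every ratio that could be given inside its interval. Members under 20 UMIs were Bcl2a1a in all gates and Bcl2, Bcl2a1b, Bcl2a1d and Bbc3 in progenitor B cells. Few counts limit the latter, and for Bcl2a1a the split of reads among the copies is uncertain.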

Other observations

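The T cells that carried Bcl2a1d shared the chemokine genes Ccl4 and Ccl3 among their 10 leading genes in both libraries, and the other leading genes differed. Ccl3 was at 99.6 against 5.03 CPM in the library labelled WT and at 59.5 against 7.08 in the library labelled Irf4-/-. In the library labelled WT the 298 cells with a Bcl2a1d UMI, against 9328 without, had Gzmb at 134 against 3.53 CPM, Ccl4 at 395 against 19.7, Gzmk at 125 against 4.63, Maf at 117 against 4.06, Havcr2 at 66.5 against 1.26, Lag3 at 73.9 against 2.33 and Pdcd1 at 65.8 against 2.82, among them a granzyme, a chemokine and the inhibitory receptors TIM-3, LAG-3 and PD-1. In the library labelled Irf4-/- the 160 cells with a Bcl2a1d UMI, against 5584 without, had Ccl1 at 82.3 against 0 CPM, Ccl4 at 252.0 against 32.5, Nrgn at 132 against 15.1, Tnfrsf9 at 58.0 against 7.03, Nr4a1 at 28.8 against 1.96 and Egr1 at 59.0 against 8.60, several of which are early genes of antigen receptor signalling. These are the highest-ranked genes with at least 20 CPM in the positive cells, not all of the 10 in each list. UMIs were pooled over the positive cells, and how many of those cells held each gene was not examined.

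B cells with a Bcl2a1b UMI were deeper than the rest in the library labelled Irf4-/- (median 6378 against 3974 UMIs, 91 and 563 cells) and close to it in the library labelled WT (3242 against 3006.5, 53 and 730 cells). In the library labelled Irf4-/- their leading genes were Ccl22, a chemokine (162 against 1.55 CPM), Bcl2a1d (232 against 15.9), Ms4a6c (132 against 17.1) and cell cycle genes such as Ccnb1 (74.2 against 8.54). In the library labelled WT Bcl2a1d led (67.7 against 6.14), and Myc was at 45.1 against 6.91. Bcl2a1d shares stretches with Bcl2a1b, by which the cells were picked, so its rank is not a separate observation. Here too UMIs were pooled over cells, and a single cell of the library labelled Irf4-/- held 73 of its Bcl2a1b UMIs. Values of a gene such as Ccl22 may therefore come from few cells.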
